A study of Mus musculus with 12 samples.

Results

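Wide accessible domains are stretches of the mouse genome in which the DNase-seq peaks of 12 libraries joined into runs of 10000 bp or more and in which every library had at least 1 peak. Peaks on the 19 autosomes were merged across the 12 deposited replicate lists wherever they shared at least 1 bp, which gave 263720 regions. Of these, 16145 held a peak of all 12 lists, and 1475 of the 16145 (9.14%) were at least 10000 bp wide. The domains are 0.559% of all merged regions, and they make up 29.6% of the base pairs in regions shared by all 12 lists. Peak positions chose the domains, so their width and their presence in every list are properties of the choice.

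Chromatin accessibility was measured by DNase-seq, in which DNase I cuts open chromatin and the cut ends are sequenced. G1E cells are a mouse erythroid progenitor line of strain background 129, made by disrupting the gene of the transcription factor GATA-1 in embryonic stem cells, and labelled as Ter119-CD71- and Ter119-CD71+. G1E-ER4 is a subline of G1E with an inducible GATA-1, and every library of it came from cells given 100 nM estradiol for 22 h and labelled Ter119+CD71+. Each line was sampled as an asynchronous culture and as mitotic cells, which had 200 ng/ml nocodazole for 7 h and were sorted for histone H3 phosphorylated at serine 10, with 3 libraries in each of the 4 groups. All cells were fixed with formaldehyde before digestion. Estradiol, active GATA-1 and the change of line came together, so they cannot be told apart, and neither can nocodazole, sorting and mitosis. Whether the replicates are separate cultures is not stated, so spreads and p-values cover these libraries and may be technical.

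DNase I hypersensitive sites are usually narrow and mark promoters, enhancers and insulators, where bound proteins displace nucleosomes. Several such sites can lie close together, as in the locus control region of the globin genes, and active genes can be sensitive to DNase I over their whole length. In mitosis chromosomes condense, transcription largely stops and many transcription factors leave the chromatin, while accessibility is known to persist at many sites.

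The lists had 100000 peaks each, so they differ in how wide their peaks were and not in how many there were. On the autosomes, peaks covered 44.7 to 112 Mb in asynchronous G1E, 84.6 to 130 Mb in mitotic G1E, 83.9 to 180 Mb in asynchronous G1E-ER4 and 64.7 to 146 Mb in mitotic G1E-ER4. Replicate 1 had the widest peaks in every group, with mean widths of 1137 to 1815 bp against 451 to 1118 bp in the other 8 lists. The number of domains and some of the differences between groups are therefore given without the replicate 1 lists as well. Genomic positions, shared cores and the spread of summits are given only with them. Read depth is unknown from these files.

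The domains had a median width of 13231 bp and ranged from 10001 to 53089 bp, 22.4 Mb in all. Of the 1475, 220 were 20000 bp or wider, 47 were 30000 bp or wider and 9 were 40000 bp or wider. The 3 narrowest domains measured 10001, 10001 and 10002 bp, and the 3 shared regions just under the limit 9993, 9991 and 9987 bp. In 1010 domains (68.5%) a single peak of at least 1 list already spanned 10000 bp. The widest peak of a domain came from asynchronous G1E-ER4 replicate 1 in 755 cases, from mitotic G1E-ER4 replicate 1 in 350, from mitotic G1E replicate 1 in 175 and from asynchronous G1E replicate 1 in 162. The number of domains thus follows those lists: without the 4 replicate 1 lists, the same rule gave 508 domains.

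The label of a wide domain holds for the merged peaks and not for each library. No domain was a single peak in every list, and 531 (36%) held at least 2 peaks in every list. The base pairs covered by all 12 lists had a median of 612 bp per domain, or 4.28% of its width, whereas the base pairs covered by at least 6 lists had a median of 66.9%. In 380 domains no base pair was covered by all 12 lists, in 385 there was 1 such stretch, and in 710 there were at least 2, with up to 25. A wide domain was thus most often several shared cores, or none, inside a wider zone that only some lists filled.

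The cover of the domains by peaks was lowest in asynchronous G1E cells. Peaks covered 57.0%, 14.9% and 23.9% of the summed domain length in the asynchronous G1E lists, numbered 1 to 3, and 72.0%, 73.4% and 58.7% in the mitotic G1E lists. The asynchronous G1E-ER4 lists covered 90.7%, 58.6% and 56.6%, and the mitotic G1E-ER4 lists 82.9%, 62.2% and 41.5%. Every asynchronous G1E list lay below every mitotic G1E list, while the stages overlapped in G1E-ER4 and the lines overlapped in mitosis. Asynchronous G1E replicate 1, at 57.0%, lay within the range of the asynchronous G1E-ER4 lists.

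The group means were 31.9% ± 22.2 in asynchronous G1E and 68.1% ± 8.12 in mitotic G1E (SD, n = 3 each). They were 68.6% ± 19.1 in asynchronous and 62.2% ± 20.7 in mitotic G1E-ER4 (SD, n = 3 each). The stage difference in G1E, 36.1 percentage points, and the line difference in asynchronous cells, 36.7 points, were larger than the pooled SD between replicates, which was 16.7 and 20.7 points. The stage difference in G1E-ER4, at -6.43 points, and the line difference in mitosis, at -5.87 points, were smaller than it. Both changed sign with single lists left out: the first ran from -17.0 points without mitotic G1E-ER4 replicate 1 to 4.13 without asynchronous G1E-ER4 replicate 1, and the second from -17.0 without mitotic G1E-ER4 replicate 1 to 4.38 without mitotic G1E-ER4 replicate 3. No p-value is given for these scores, since the same peak positions chose the domains.

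**Figure D1:**
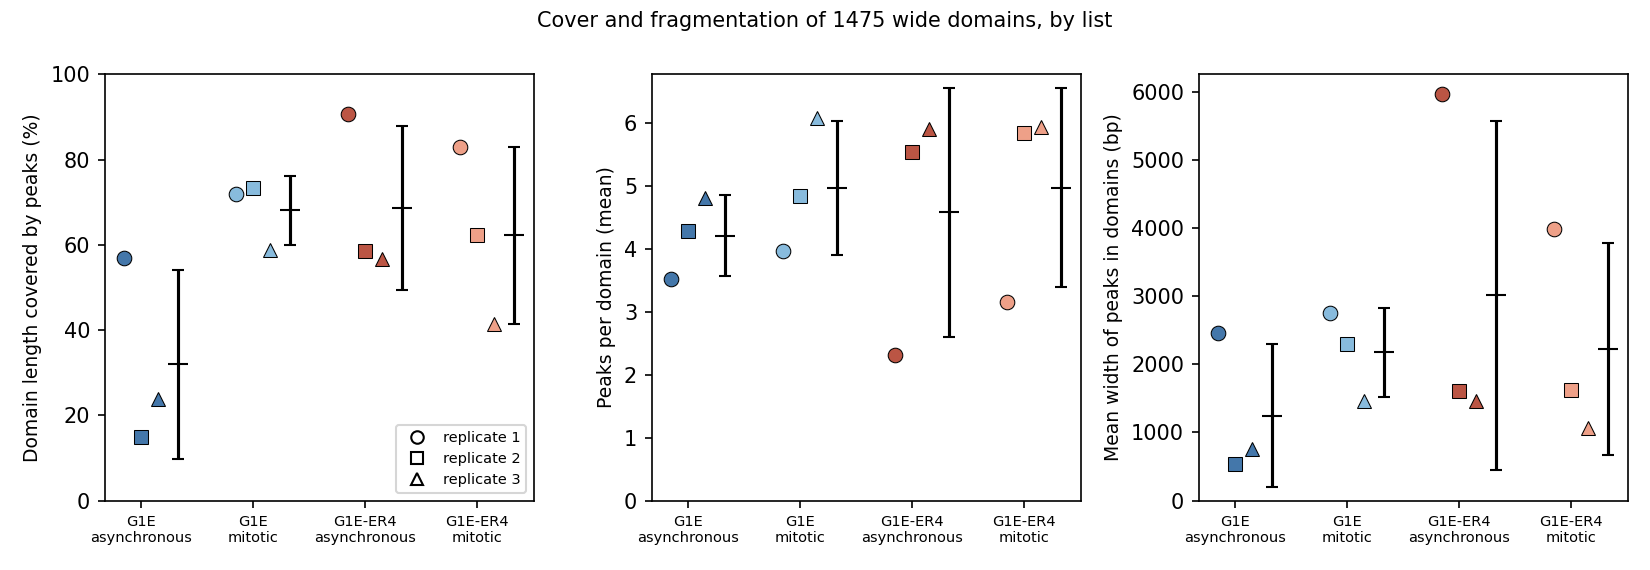
Share of the summed domain length covered by peaks (%), mean number of peaks per domain and mean width of the peaks in domains (bp) for the 12 lists; symbols are replicates 1, 2 and 3, and bars are the mean and SD of 3 lists. Asynchronous G1E lies lowest in cover, at 14.9% to 57.0%, and replicate 1 has the fewest and widest peaks of its group in each of the 4 groups.

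Each list was also measured on domains that it had not helped to choose. For this, domains were defined from the other 11 lists, which gave 1150 to 1627 domains. The left-out list covered 53.1%, 13.5% and 22.9% of them in asynchronous G1E and 70.7%, 73.5% and 58.7% in mitotic G1E. In asynchronous G1E-ER4 the values were 89.2%, 58.6% and 56.5%, and in mitotic G1E-ER4 82.3%, 62.2% and 41.3%. The asynchronous G1E lists again lay below all mitotic G1E lists, and here also below all asynchronous G1E-ER4 lists. The other 11 lists still held wide-peak lists of the other groups, so this order is a description and no independent support. The asynchronous G1E lists had a peak in 97.5%, 90.2% and 96.0% of the domains that the others defined, and each of the other 9 lists in at least 99.5%.

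Part of this difference in cover was shared by the whole lists. Domains held 11.4%, 7.48% and 9.40% of all base pairs covered by the asynchronous G1E lists and 12.5%, 14.8% and 15.6% of those covered by the mitotic G1E lists. The asynchronous G1E-ER4 lists had 11.3%, 14.9% and 15.1% of their base pairs in domains, and the mitotic ones 12.8%, 15.7% and 14.4%. On this scale the 2 stages of G1E again did not overlap, whereas asynchronous G1E-ER4 replicate 1 fell just below asynchronous G1E replicate 1. In the narrower regions shared by all 12 lists, cover was 47.6% ± 21.3 in asynchronous and 60.6% ± 4.78 in mitotic G1E (SD, n = 3 each). The mean difference between the stages of G1E was thus 36.1 points in the domains, beside those means in the narrower regions. The part of peak width over the whole list in this result was not tested.

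The number of peaks per domain did not separate the groups. Asynchronous G1E lists had 3.53, 4.28 and 4.81 peaks per domain and mitotic G1E lists 3.97, 4.85 and 6.09. Asynchronous G1E-ER4 lists had 2.31, 5.54 and 5.91 and mitotic G1E-ER4 lists 3.16, 5.84 and 5.93. All 4 groups overlapped, and each of the 4 mean differences, from 0.00633 to 0.762 peaks, was smaller than the SD between replicates. In each group replicate 1 had the fewest peaks, and those were the widest. The narrower shared regions held 1.54 to 1.61 peaks per region as group means, and the domains 4.21 to 4.98.

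The width of the peaks overlapped between the groups. In the domains they averaged 2455, 530 and 754 bp in asynchronous G1E and 2758, 2303 and 1466 bp in mitotic G1E. In asynchronous G1E-ER4 they averaged 5968, 1609 and 1455 bp, and in mitotic G1E-ER4 3992, 1619 and 1064 bp. Replicates 2 and 3 of asynchronous G1E stood below all other lists, and replicate 1 did not. The line difference in asynchronous cells, 1765 bp, was smaller than the pooled SD between replicates of 1959 bp, and the stage difference in G1E, 930 bp, was little above its SD of 877 bp. The median gap between neighbouring peaks of a domain was 379, 1002 and 767 bp in asynchronous G1E and 300, 265 and 367 bp in mitotic G1E, so these stages did not overlap. In G1E-ER4 the gaps overlapped, at 207, 400 and 408 bp in asynchronous and 220, 335 and 527 bp in mitotic cells.

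A single peak in a domain meant different things in different lists. Asynchronous G1E lists had a single peak in 231, 310 and 193 domains, of which 91, 299 and 173 were single peaks that covered under 10% of the domain. Asynchronous G1E-ER4 replicate 1 had a single peak in 487 domains, and 433 of those peaks covered over 90% of the domain. In mitotic G1E the single-peak domains numbered 123, 58 and 17, with 87, 35 and 3 of them filled to over 90%. Single-peak domains were thus mostly small isolated sites in asynchronous G1E replicates 2 and 3, and mostly whole-domain peaks in the replicate 1 lists of G1E-ER4. Domains with under 10% of their width covered numbered 126, 630 and 424 in asynchronous G1E and at most 67 in any other list.

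The limit on listed peaks bears on these counts. Peaks carry running numbers along each chromosome, and the numbers skipped between peaks of a domain were read as called peaks that the limit of 100000 had left out. They averaged 2.38, 2.26 and 3.18 per domain in asynchronous G1E, 1.96, 1.83 and 3.07 in mitotic G1E, 0.437, 3.21 and 3.50 in asynchronous G1E-ER4 and 0.967, 2.67 and 3.82 in mitotic G1E-ER4. With these counted, a setting chosen after seeing the data, domains held 6.81 ± 1.07 and 7.26 ± 1.69 peaks in asynchronous and mitotic G1E and 6.97 ± 3.67 and 7.46 ± 2.96 in G1E-ER4 (SD, n = 3 each), so the groups still overlapped. Without the replicate 1 lists, mitotic minus asynchronous G1E was -0.488 listed peaks per domain on the 508 domains then found, against 0.762 on the 1475 domains. On the 1475 domains, replicates 2 and 3 held 4.28 and 4.81 listed peaks in asynchronous and 4.85 and 6.09 in mitotic G1E. The direction thus changed with the set of domains.

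**Figure D2:**
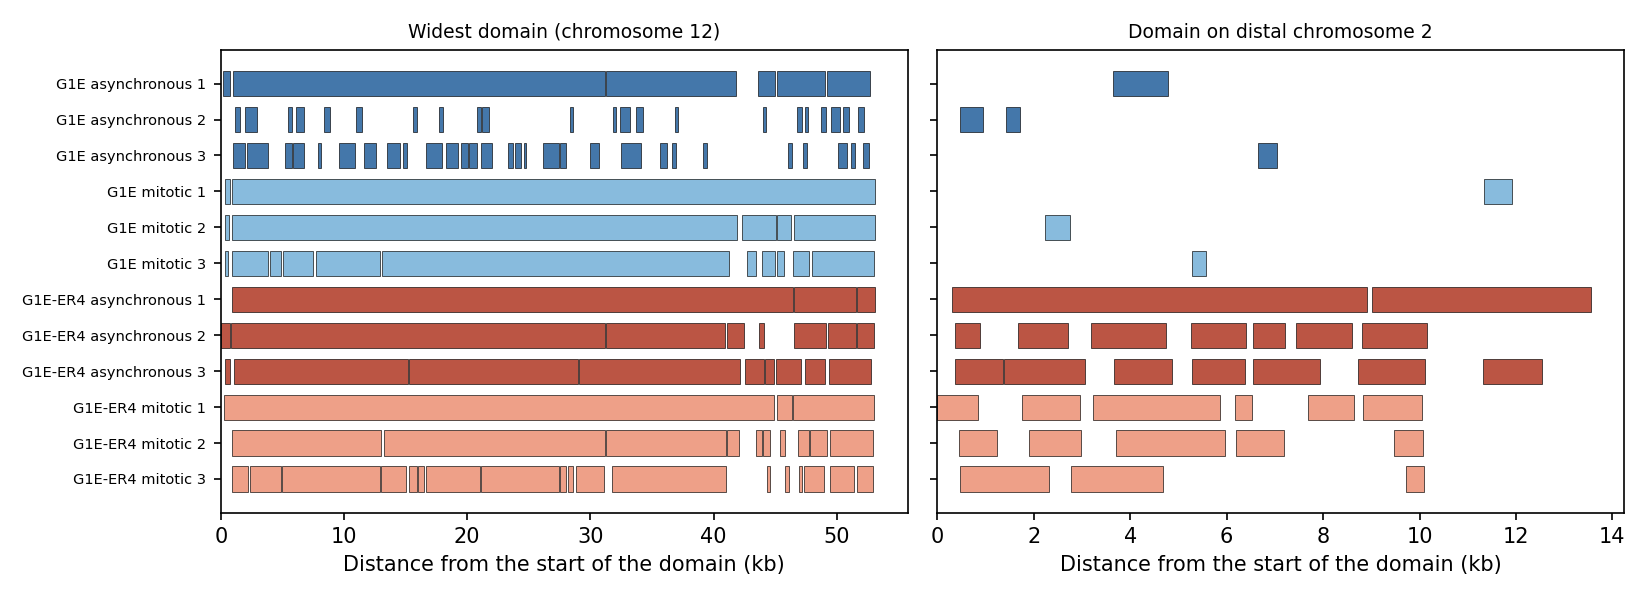
Peaks of the 12 lists along the widest domain and along a domain on distal chromosome 2, as distance in kb from the start of the domain; each row is a list and each box a peak. In the widest domain the asynchronous G1E replicates 2 and 3 have 22 and 29 short peaks. The other lists have 2 to 18 there, mostly longer, with short ones also in mitotic G1E-ER4 replicate 3. In the domain on chromosome 2 the 6 G1E lists have 1 or 2 short peaks at differing places. The G1E-ER4 lists have 2 to 7 peaks there, many of them wider and some as short.

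The widest domain lay on chromosome 12 of build mm9 from 113377309 to 113430397. Peaks covered 94.4%, 18.7% and 39.1% of it in asynchronous G1E, in 6, 22 and 29 pieces, and 99.1%, 97.4% and 91.4% in mitotic G1E, in 2, 5 and 11 pieces. In G1E-ER4 the cover was 97.9%, 91.7% and 95.2% in asynchronous cells and 98.8%, 90.1% and 82.5% in mitotic cells. A single mitotic G1E peak was 52198 bp long here. The 2 asynchronous G1E lists with narrow peaks held many short pieces and left most of the domain uncovered. The other 10 lists covered at least 82.5% of it, mostly in longer blocks, with short peaks also in mitotic G1E-ER4 replicate 3.

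The second widest domain, on chromosome 12 from 110252483 to 110300716, had the same form. Asynchronous G1E covered 98.0%, 26.1% and 49.5% of it in 5, 24 and 30 peaks, and mitotic G1E 97.9%, 96.2% and 90.1% in 7, 7 and 14. The fifth, on chromosome 8 from 124804302 to 124851158, was covered to 98.8%, 31.2% and 67.4% in asynchronous G1E in 3, 29 and 28 peaks. In these domains asynchronous G1E replicates 2 and 3 held many short peaks spread over the domain.

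Other wide domains were nearly empty in asynchronous G1E. The fourth, on chromosome 17 from 25501762 to 25548876, was covered to 5.7%, 1.3% and 3.4% by 3, 2 and 3 peaks there, and to 53.5%, 71.4% and 50.8% by 17, 18 and 19 peaks in mitotic G1E. The third, on chromosome 2 from 74501302 to 74549450, was covered to 9.4%, 3.0% and 4.6% in asynchronous G1E and to 24.1%, 56.8% and 34.4% in mitotic G1E. The ninth, on chromosome 2 from 173067750 to 173109075, was covered to 10.8%, 0.5% and 2.2% in asynchronous and 29.4%, 60.4% and 34.7% in mitotic G1E. In these 3 domains every mitotic G1E list stood above every asynchronous G1E list.

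Of the remaining 4 among the 10 widest, 2 lay on chromosome 15 and 2 on chromosome 1. Those on chromosome 15, from 77595491 to 77638960 and from 75998045 to 76040765, were covered to 4.4% to 48.8% and to 13.6% to 69.9% in the asynchronous G1E lists. Those on chromosome 1, from 138013266 to 138055323 and from 120896144 to 120935313, were covered to 33.7% to 80.8% and to 7.2% to 51.2%. In the mitotic G1E lists the 4 were covered to at least 46.4%, 59.0%, 68.9% and 72.3%. Only in the last of the 4 did the stages of G1E not overlap.

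The domains with the highest mean cover over the 12 lists were a pair of neighbours on chromosome 17, from 27475899 to 27487989 and from 27461103 to 27475648, and a domain on chromosome 1 from 75431939 to 75456546. Their lowest covers were 47.4%, 35.1% and 51.3%, all in asynchronous G1E replicate 2, and all mitotic G1E lists covered at least 93.6% of each. The domains with the lowest mean cover lay on chromosomes 6, 16 and 17, where they started at 113828627, 18167472 and 57032033 and ended at 113846899, 18180512 and 57044012. Asynchronous G1E-ER4 replicate 1 covered 97.8%, 90.9% and 100.0% of them, and no other list more than 48.8%. These 3 domains were wide through 1 list.

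The difference in covered length was also computed per region over all 16145 shared regions, each list centred on its median, with limma and Benjamini-Hochberg adjustment at 0.05. In mitotic against asynchronous G1E, 648 domains (43.9%) were called higher, where the same call fell on 10.4% of all shared regions, and 3 were called lower, against 3.98%. In G1E-ER4 no domain was called in either direction by limma, against 0.00619% of all regions in each direction. At an unadjusted limma p under 0.05 there were 33 domains, beside 1337 of all 16145 regions. In asynchronous cells 582 domains (39.5%) were called higher in G1E-ER4 than in G1E, against 8.59% of all regions, and 3 lower, against 1.95%. In mitosis 3 domains were called higher in G1E-ER4, against 0.0805%, and none lower, against 0.031%. Here 125 domains had an unadjusted limma p under 0.05 in either direction, beside 1422 of all 16145 regions. Covered length shares its peak positions with the rule, so these counts describe the domains beside their background and are taken no further.

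The sizes behind these counts ran the same way in the comparisons with asynchronous G1E. The median difference in the domains was 1.10 on the log2 scale between the stages of G1E, against -0.13 over all shared regions, and 0.07 between the stages of G1E-ER4. Between the lines it was 1.03 in asynchronous cells, against -0.08 over all regions, and -0.02 in mitosis. These medians are of centred lists. The counts that follow compare covered length without centring, so they need not share the sign of the medians. All 3 mitotic G1E lists covered more than all 3 asynchronous ones in 677 domains, 45.9% of them, against 15.1% of all shared regions, and less in 2, against 4.61%. In G1E-ER4 the mitotic lists covered more in 2 domains, against 0.718%, and less in 42, against 13% of all regions. All asynchronous G1E-ER4 lists covered more than all asynchronous G1E lists in 602 domains, 40.8% of them, against 13.8%, and less in 4, against 2.65%. In mitosis the G1E-ER4 lists covered more in 59 domains, against 1.93%, and less in 58, against 8.8%.

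Without centring, 375 domains were called between the stages of G1E, all higher in mitosis, and 355 between the lines in asynchronous cells. The median over all shared regions then lay at 0.24 on the log2 scale between the stages of G1E and at 0.33 between the lines in asynchronous cells, and that of the domains at 1.47 and 1.44. In the stages of G1E-ER4 the median of the domains changed sign, to -0.15, beside -0.23 over all regions. Over all regions the share of higher calls then moved from 1672 of 2314 to 867 of 896 between the stages of G1E, and from 1387 of 1702 to 807 of 816 between the lines.

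**Figure D3:**
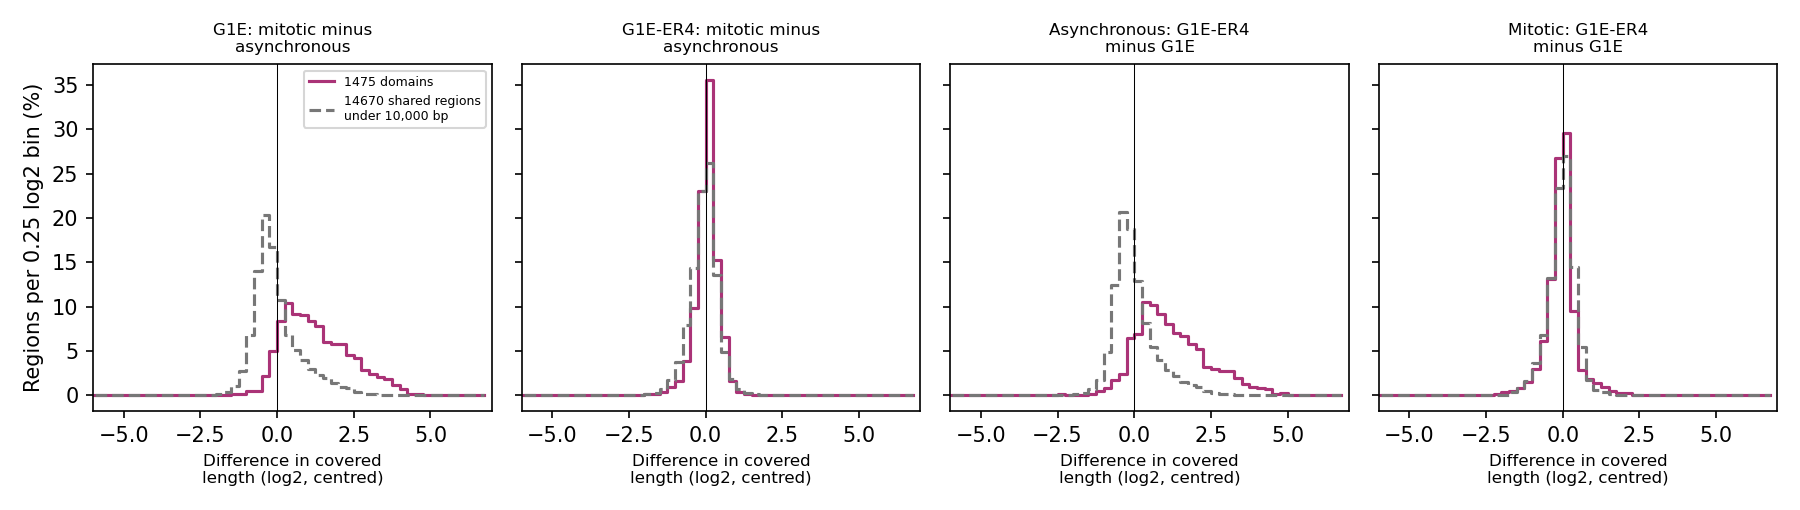
Distribution of the difference in covered length per region (log2, each list centred on its median) in 4 comparisons, for the 1475 domains and the 14670 shared regions under 10000 bp, as the percent of regions in each bin of 0.25. Domains lie to the right, with medians of 1.10 and 1.03, in the 2 comparisons with asynchronous G1E, and around 0 in the other 2.

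The interaction of stage and line in covered length is a description too, since the peak positions it rests on also chose the domains. The change with mitosis was lower in G1E-ER4 than in G1E in 188 domains, against 1.85% of all regions, and higher in 1, against 0.0681% (limma interaction, Benjamini-Hochberg adjusted p under 0.05), with a median difference of -1.09 on the log2 scale. The count rested on single libraries: it was 527 without asynchronous G1E replicate 1 and 81 without mitotic G1E replicate 2. It was also between 99 and 124 without asynchronous G1E replicate 2 or 3, mitotic G1E replicate 3, asynchronous G1E-ER4 replicate 1 or mitotic G1E-ER4 replicate 1 or 3. Over all shared regions the count ran from 116 to 1077 with each list left out. On the arcsine scale of the covered share limma called 0 domains, so a difference between the lines in this change is not shown by covered length.

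The number of peaks per domain was called in few cases. In mitotic against asynchronous G1E, limma called 5 domains as holding more peaks, against 0.0464% of 12935 regions tested, and none as holding fewer, against 0%. At an unadjusted limma p under 0.05 there were 310 domains, beside 1500 of the 12935 regions. In the stages of G1E-ER4, in the lines at either stage and in the interaction no domain was called, against 0% of all regions. At an unadjusted limma p under 0.05 there were 42, 171, 38 and 123 domains in the order stages, asynchronous lines, mitotic lines and interaction. Beside them stood 636, 1054, 536 and 601 of the 12935 regions. All mitotic G1E lists held more peaks than all asynchronous ones in 280 domains, 19% of them, against 3.95% of all shared regions, and fewer in 30, against 1.55%. Between the stages of G1E-ER4 the groups were separate in 20 domains with more peaks in mitosis, against 0.948%, and 7 with fewer, against 1%. Between the lines, asynchronous G1E-ER4 held more in 60, against 1.15%, and fewer in 19, against 1.1%, and mitotic G1E-ER4 more in 14, against 0.811%, and fewer in 25, against 0.985%. The 5 calls became 52 without asynchronous G1E-ER4 replicate 1, 35 without asynchronous G1E replicate 1, and 0 without mitotic G1E replicate 1 or 2. The other lists left out 1 at a time gave 3 to 24. Leaving out the 4 replicate 1 lists together gave 162, a setting chosen after seeing the data. Over all regions tested the calls ran from 0 to 349 with each list left out.

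Of the 5, the one with the smallest p lay on chromosome 9 from 90076612 to 90103669. It held 1, 1 and 1 peaks in asynchronous G1E and 10, 13 and 13 in mitotic G1E, 3, 7 and 11 in asynchronous G1E-ER4 and 7, 10 and 10 in mitotic G1E-ER4. The next lay on chromosome 2 from 27773635 to 27786736, with 1 peak in each asynchronous G1E list and 6, 6 and 5 in mitotic G1E. Here a lone site in asynchronous G1E stood beside a cluster of peaks in each other group.

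The strength of the domains' best peak was measured by its rank in the list, with 1 as the highest signal the authors gave. The rule did not use the rank, but the rank is not independent of the choice of domains. The widest peak of a domain came from asynchronous G1E replicate 2 or 3 in 0 of the 1475 domains, as it also did from replicate 3 of both mitotic groups, so these domains were wide through other lists. The counts of this comparison are therefore read beside those over all shared regions and no further. In the domains the median best rank was 16488, 20509 and 19643 in asynchronous G1E and 9216, 10025 and 10727 in mitotic G1E. It was 10235, 11525 and 12096 in asynchronous G1E-ER4 and 8733, 9158 and 10840 in mitotic G1E-ER4. The asynchronous G1E lists ranked the domains lowest of all 12 lists, without overlap. In the narrower shared regions the group means of the median rank lay between 8544 and 10221, against 18880 ± 2116 (SD, n = 3) in the domains of asynchronous G1E.

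**Figure D4:**
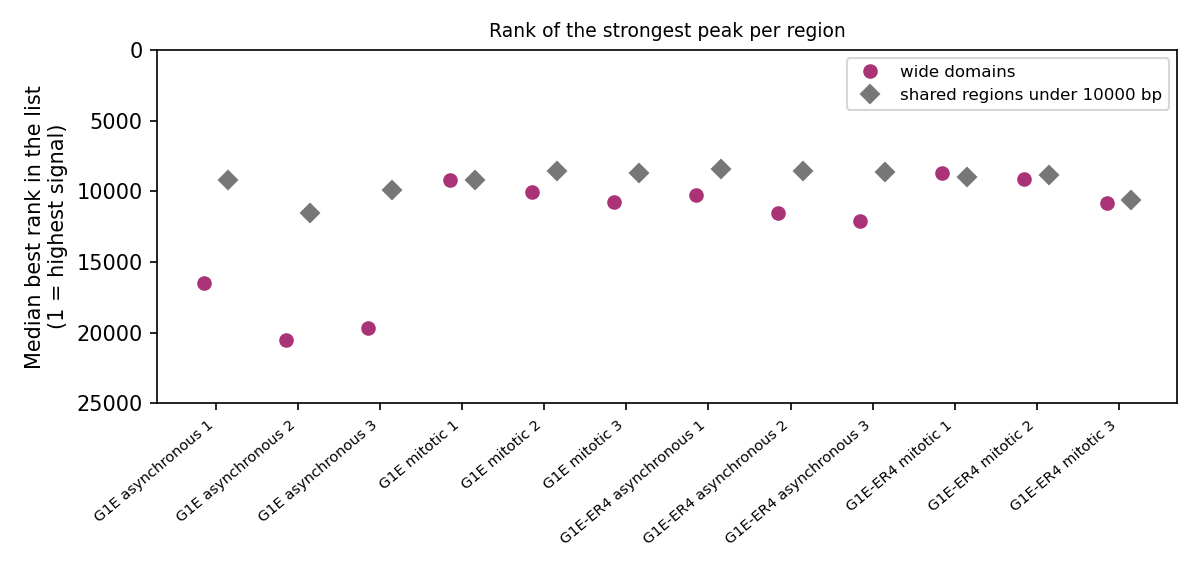
Median over regions of the rank of the strongest peak in each of the 12 lists (axis reversed, 1 is the highest signal), for the wide domains and for the shared regions under 10000 bp. The domains rank at 16488 to 20509 in the 3 asynchronous G1E lists and at 8733 to 12096 in the other 9.

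Per region, limma called 386 domains (26.2%) as ranking better in mitotic than in asynchronous G1E, where the call fell on 10.1% of all shared regions, and 25 as ranking worse, against 3.39%. Their median difference in log2 rank was -0.88 against -0.26 over all shared regions, which is -0.62 relative to them. In asynchronous cells 226 domains (15.3%) ranked better in G1E-ER4 than in G1E, against 5.48%, and 27 worse, against 3.07%, with a median difference of -0.82, or -0.48 relative to all shared regions. The stages of G1E-ER4 gave 1 domain ranking better in mitosis, against 0.273%, and 12 worse, against 0.477%. Over all domains the median difference there was -0.17, or -0.32 relative to all shared regions. That median lies on the side of better ranks in mitosis, unlike most of these few calls. The lines in mitosis gave 7 better in G1E-ER4, against 0.136%, and 3 worse, against 0.576%. This order turned to 5 better and 13 worse without mitotic G1E replicate 1.

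Fitted with the replicate number as a block, the comparison of the lines in mitosis gave 31 domains in place of 10. In asynchronous cells the block gave 341 domains ranking better in G1E-ER4 and 38 worse, in place of 226 and 27. The other counts and the p-values by rank given here are from the fit without the block. The interaction called no domain by rank with limma, against 0% of all regions. At an unadjusted limma p under 0.05 there were 240 domains, beside 1564 of all 16145 regions. By rank the stage difference was thus not shown to differ between the lines. The 411 calls between the stages of G1E fell to 215 and 232 without asynchronous G1E replicate 2 or 3. The 253 calls between the lines in asynchronous cells fell to 91 to 103 without replicate 2 or 3 of G1E or replicate 1 or 2 of G1E-ER4. The 13 calls between the stages of G1E-ER4 became 56 without mitotic G1E replicate 1 and at most 3 without any G1E-ER4 list. The 10 between the mitotic lines became 24 without asynchronous G1E replicate 1 and 0 without mitotic G1E replicate 3. Calls over all shared regions moved too with each list left out. In the same order they ran from 871 to 2797, 416 to 2289, 0 to 619 and 2 to 286.

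Some of the widest domains were among those called by rank. In the widest domain the best peak ranked at 28051, 20535 and 18679 in asynchronous G1E and at 5073, 7386 and 6769 in mitotic G1E, a log2 difference of -1.80 (SE 0.347, limma adjusted p = 0.00674). In the second widest it ranked at 28689, 29876 and 30676 and at 4164, 8041 and 8610 (-2.17, SE 0.387, limma adjusted p = 0.00513). The ninth, on chromosome 2, ranked at 54476, 91019 and 67717 in asynchronous G1E and at 8613, 15210 and 19095 in asynchronous G1E-ER4 (-2.36, SE 0.464, limma adjusted p = 0.0101). In these domains the asynchronous G1E lists held lower-ranking peaks, without overlap. Peak positions in these same libraries made these domains the widest, so their rank p-values are no independent test.

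The eighth widest domain, on chromosome 1 from 138013266 to 138055323, went the other way. Its best peak ranked at 231, 328 and 381 in asynchronous G1E and at 2502, 2520 and 1378 in mitotic G1E, a log2 difference of 2.74 (SE 0.501, limma adjusted p = 0.00573). In G1E-ER4 it ranked at 2123, 1013 and 627 in asynchronous and 5540, 2561 and 2553 in mitotic cells. The domain on chromosome 1 from 75431939 to 75456546 ranked at 1149, 114 and 481 in asynchronous and 3401, 2387 and 3049 in mitotic G1E, a log2 difference of 2.87 (SE 0.841, limma adjusted p = 0.0379). In both domains every asynchronous G1E list ranked the strongest site higher than every mitotic G1E list did. Width or mean cover in these same libraries picked both, so their rank p-values are no independent test either.

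The strongest site of a domain lay at the same place in all 12 lists only in a minority of domains. The spread of the 12 strongest summits had a median of 6371 bp. Narrower shared regions were not measured in this way. The summit of the strongest peak lay within 500 bp for all 12 lists in 274 domains (18.6%) and for at least 6 lists in 995 (67.5%). Over the domains a median of 7 of 12 lists had it in 1 such window. In the widest domain only 3 lists shared a window, and 10 did in the eighth widest.

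Domains were unevenly spread over the chromosomes. Chromosome 12 had 248 domains, which is 15.7% of its shared regions, chromosome 2 170 (13.3%), chromosome 1 214 (12.7%) and chromosome 4 131 (12.1%). Chromosome 13 had 10 (2.25%) and chromosome 18 had 11 (3.29%). The X chromosome, which the rule did not use, had 178 regions shared by all 12 lists, with a widest of 7331 bp and so no domain. The median gap to the next domain was 86.5 kb, against 22.1 kb from a shared region to the next. Of the 1456 gaps between domains, 583 were under 50 kb and 172 were under 5 kb. Among the gaps between shared regions, 67.6% were under 50 kb. Domains are fewer than shared regions and no comparison at equal density was made, so clustering of the domains was not tested.

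**Figure D5:**
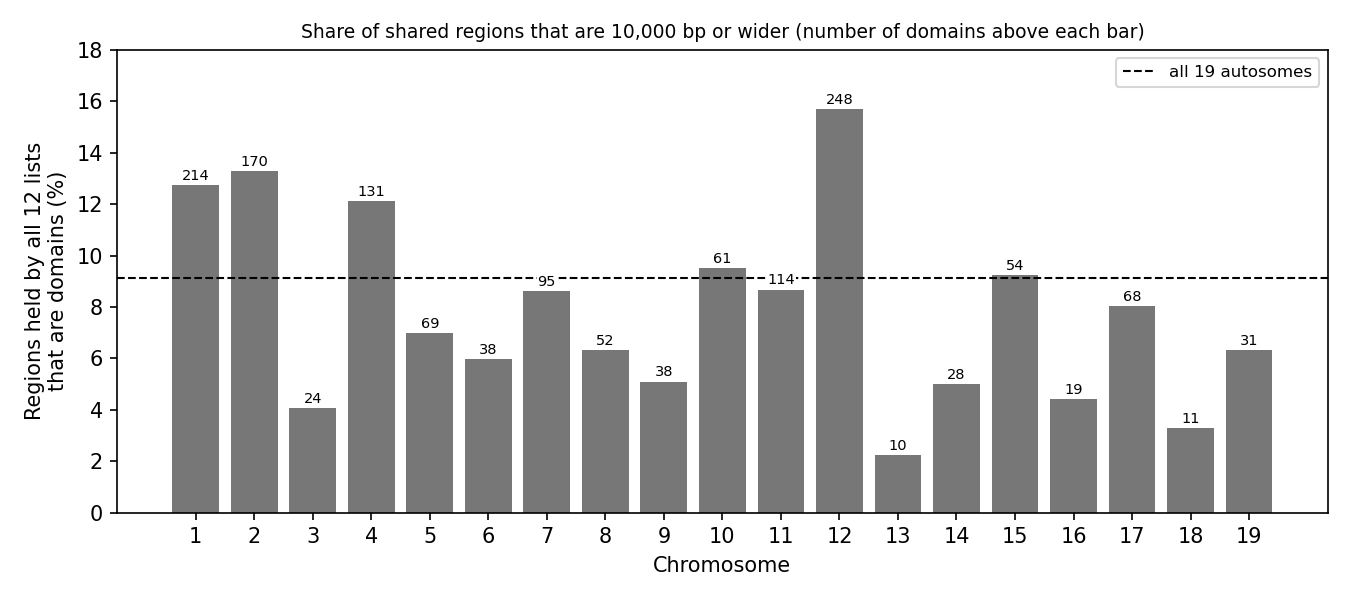
Percent of the regions shared by all 12 lists that are domains, by autosome, with the number of domains above each bar; the dashed line is the value over all autosomes, 9.14%. Chromosome 12 is highest, at 15.7%, and chromosome 13 lowest, at 2.25%.

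In windows of 5 Mb, 213 of the 490 windows with a shared region held a domain. The window on chromosome 12 from 110000001 to 115000000 held 86 domains among 308 shared regions (27.9%), and the one before it 54 among 279. On chromosome 1 the window from 90000001 to 95000000 held 42 and the one from 135000001 to 140000000 held 39. The window on chromosome 4 from 135000001 to 140000000 held 27 among 101 shared regions. No genes are named here, since no gene annotation of build mm9 was used.

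On chromosome 12 the cover differed widely between the replicates of asynchronous G1E. Its domains were covered to 88.2%, 26.6% and 39.5% there and to 92.8%, 77.2% and 66.5% in mitotic G1E. In asynchronous G1E replicates 2 and 3 they held 7.37 and 7.57 peaks each, against 3.41 in replicate 1. On chromosome 4 the same lists covered 82.1%, 9.6% and 16.5% in asynchronous and 94.2%, 64.0% and 45.4% in mitotic G1E. On both chromosomes the stages overlapped.

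On distal chromosome 2 the cover of the lines did not overlap at either stage. From position 156000001 to the end, 95 of 364 shared regions (26.1%) were domains, against 75 of 915 (8.20%) on the rest of the chromosome. Peaks covered 27.3%, 7.2% and 13.1% of these 95 domains in asynchronous G1E and 43.0%, 50.2% and 35.9% in mitotic G1E. In G1E-ER4 they covered 98.1%, 76.9% and 79.6% in asynchronous and 89.3%, 76.6% and 55.6% in mitotic cells. Every G1E-ER4 list lay above every G1E list, which was not so in the other 1380 domains, where mitotic G1E lists covered 60.6% to 75.3% and mitotic G1E-ER4 lists 40.4% to 82.3%. This boundary was chosen with results of these data known, so the values are a description. Peak lists hold no read counts, and the number of copies of this segment in each line was not analysed here.

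Several domains with the smallest p for covered length lay there. The domain on chromosome 2 from 164942022 to 164963486 was covered to 2.2%, 1.0% and 1.4% in asynchronous G1E, 36.2%, 34.8% and 29.3% in mitotic G1E, 99.4%, 86.2% and 84.1% in asynchronous G1E-ER4 and 90.8%, 75.9% and 38.9% in mitotic G1E-ER4. Its single asynchronous G1E peaks ranked at 92298, 74661 and 96593, near the end of the lists. The best asynchronous G1E-ER4 peaks ranked at 12721, 14708 and 18653 (log2 difference -2.53, SE 0.361, limma adjusted p = 0.00166). Covered length in these same libraries picked this domain, so its rank p is no independent test. All 4 groups were separate in cover, apart from the 2 stages of G1E-ER4. The domain from 172744547 to 172770416 went the same way, with 1.6% to 2.7% in asynchronous G1E and 80.3% to 99.3% in asynchronous G1E-ER4.

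The 3 domains called between the lines in mitosis include 1 from 169830107 to 169843671 and 1 from 156240812 to 156252248, both on chromosome 2. The first was covered to 4.3%, 3.9% and 2.1% in mitotic G1E and 53.1%, 42.2% and 30.5% in mitotic G1E-ER4. Its asynchronous G1E lists covered 8.3%, 5.6% and 2.8%, so both stages of G1E held only short peaks. By rank this domain did not pass between the lines in mitosis (log2 difference -1.64, SE 0.392, limma adjusted p = 0.0687).

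Outside chromosome 2, the domain with the smallest p for higher cover in mitotic G1E lay on chromosome 15 from 75823095 to 75846665. It was covered to 6.4%, 1.8% and 2.7% in asynchronous G1E and 93.5%, 99.1% and 80.1% in mitotic G1E. In G1E-ER4 it was covered to 99.5%, 85.1% and 66.9% in asynchronous and 99.8%, 94.8% and 76.3% in mitotic cells. Here asynchronous G1E was the only group without wide cover. Its best peak ranked at 21384, 23875 and 20957 in asynchronous and 23258, 7251 and 10763 in mitotic G1E, which overlap (limma adjusted p = 0.217).

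Few domains were called lower in covered length in mitotic G1E. The domain on chromosome 14 from 115438509 to 115449824 was covered to 77.1%, 41.6% and 72.6% in asynchronous G1E by 3, 7 and 4 peaks, and to 39.5%, 30.3% and 26.4% in mitotic G1E by 1 peak each. That peak ranked at 281, 3258 and 3739, against 6008, 23593 and 10392 for the best peak in asynchronous G1E (log2 difference -2.92, SE 0.866, limma adjusted p = 0.0402). The domain on chromosome 2 from 169937428 to 169948587 was covered to 51.3%, 15.9% and 16.3% in asynchronous and 4.9%, 3.8% and 7.5% in mitotic G1E, and to 99.8%, 36.4% and 75.6% in asynchronous and 8.3%, 16.9% and 3.0% in mitotic G1E-ER4. In that domain both lines were lower in mitosis in every list. Its best rank was worse in mitosis by 1.55 on the log2 scale in G1E (SE 0.386, limma adjusted p = 0.02) and by 2.04 in G1E-ER4 (SE 0.386, limma adjusted p = 0.0361). Covered length in these same libraries picked both domains, so their rank p-values are no independent test.

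Lower cover in asynchronous G1E-ER4 than in asynchronous G1E was as rare. On chromosome 1 from 43519192 to 43529497 the cover was 100.0%, 47.8% and 60.8% in asynchronous G1E and 17.0%, 14.0% and 16.6% in asynchronous G1E-ER4. Its best peak ranked at 6283, 7820 and 9823 in asynchronous G1E and at 47486, 33758 and 38905 in asynchronous G1E-ER4 (log2 difference 2.34, SE 0.459, limma adjusted p = 0.0101). Covered length in these same libraries picked this domain, so its rank p is no independent test. On chromosome 12 from 78158715 to 78170371 the cover was 98.9%, 50.1% and 68.8% against 25.7%, 30.7% and 39.7%. In both domains every asynchronous G1E list stood above every asynchronous G1E-ER4 list, whereas mean cover was higher in asynchronous G1E-ER4 in 1395 domains.

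Beside the 1475 domains stood 636 regions of 10000 bp or more that lacked a peak of at least 1 list. Of these, 492 lacked asynchronous G1E replicate 2, 350 lacked replicate 3 and 261 lacked replicate 1 of the same group, while no other list was missing from more than 20. The 2 narrow asynchronous G1E lists, together or singly, were missing from 582 (91.5%). The requirement of all 12 lists thus left out mostly regions without a peak in asynchronous G1E.

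The authors' pooled lists, 1 per group, covered 60.0% of the domain length in asynchronous G1E, 92.1% in mitotic G1E, 96.1% in asynchronous G1E-ER4 and 89.8% in mitotic G1E-ER4. They held 3.10, 2.23, 1.74 and 2.24 peaks per domain in the same order. The pooled asynchronous G1E list had the least cover and the most peaks. It had a peak in 1469 of the 1475 domains, and the other pooled lists in 1474, 1475 and 1475.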

How the data were processed

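The authors deposited headerless lists of peaks, 1 for each of the 12 libraries and 1 for each of the 4 groups, pooled by the authors. Per the submitters' processing notes, Bowtie and build mm9 were used. The Bowtie version is not given in the sources used here, and neither is the peak caller. Each line gives a position, a peak name, a summit offset and a signal, a value the authors deposited for each peak with its normalization not stated. The signal was used to rank peaks within a list. The peak positions, summit offsets and the number in each peak name were used as deposited. Positions are counted from 1. Lists give no read counts, so no depth, interval or floor can be given. A limit of 100000 peaks per list fixes the number of peaks, so a list with wide peaks covers more.

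Peaks on chromosomes 1 to 19 were merged where they shared at least 1 bp. The domains, the boundary on chromosome 2 and the tests were chosen with earlier results of these data known. limma 3.58.1 in R 4.3.3 was fitted over all regions shared by the 12 lists, for log2 covered length (centred per list), log2 number of peaks (over the 12935 regions not holding 1 peak in every list) and log2 best rank, with 4 groups and contrasts by stage, by line and their interaction. Benjamini-Hochberg adjustment ran over all regions, with a threshold of 0.05. The fits were tested on simulated data. Named regions were the 10 widest, 3 on either side of the width limit, 3 each of highest and lowest mean cover, and up to 2 of smallest p for covered length and for number of peaks in each simple contrast and direction.

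Same-numbered lists of 2 groups were taken as paired where all 3 correlations of their deviations from the group means were over 0.1. This held for covered length between asynchronous lines (0.287, 0.108 and 0.137) and for best rank between asynchronous lines (0.404, 0.170 and 0.187) and between mitotic lines (0.452, 0.275 and 0.186). In each of these sets, 1 replicate correlated more with a list of another number. It was replicate 2 in the asynchronous lines, at 0.122 for covered length and 0.301 for best rank, and replicate 3 in the mitotic lines, at 0.318. The pairing comes from these data, not from a label, and is uncertain. Alternatives left out each list, changed the width limit, merging, peaks used, scaling and centring, or used the pooled lists. Calculations used Python 3.11.15, numpy 2.4.6, pandas 2.3.3 and matplotlib 3.10.9. Chromosomes X and Y entered no domain. No mm9 annotation or genome was used, so genes, sequences and the markers of the labelled cell type are not analysed here.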

Additional observations from a re-analysis of the deposited data

Results flagged for a closer look

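In 189 domains the change in covered length with mitosis was called different between the lines (limma interaction, Benjamini-Hochberg adjusted p under 0.05), in 188 of them with the lower change in G1E-ER4. In 299 of all 16145 shared regions the change was likewise lower in G1E-ER4, and in 11 higher. Covered length rests on the peak positions that chose the domains, so the count is a description. On the arcsine scale of the covered share limma called 0 domains, and by best rank 0. By best rank 240 domains had an unadjusted limma p under 0.05, beside 1564 of all 16145 shared regions. The same-numbered differences in cover of all domains were 15.0, 58.5 and 34.9 percentage points in G1E and -7.82, 3.61 and -15.1 in G1E-ER4. By the rule used here, same-numbered lists of the stages were not taken as paired for covered length. Over the whole lists, covered length was higher in mitosis in all 3 same-numbered pairs of G1E and in 1 of 3 pairs of G1E-ER4, and the part of this in the count was not tested.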

How the results depend on the processing

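The number of domains was 2322 and 966 with a width limit of 8000 and 12000 bp, 977 with the 50000 highest peaks of each list, 3677 when peaks up to 500 bp apart were joined and 508 without the 4 replicate 1 lists, the last chosen after seeing the data, as all settings without those 4 lists. It was 1150 to 1627 with each list left out. Cover in mitotic minus asynchronous G1E was 59.1 points without the replicate 1 lists. As a share of all base pairs a list covers, the stages of G1E-ER4 differed by 0.509 points and the lines in mitosis by 0.0109, with the opposite sign to the differences in domain length. Peaks per domain in mitotic minus asynchronous G1E were -0.488 without the replicate 1 lists and -0.624 in the pooled lists, where the lines in asynchronous cells differed by -1.18. Mean peak width differed by 2130 and 3210 bp in the same 2 settings in G1E, and between the asynchronous lines by 5480 bp in the pooled lists and 0.728 as a ratio to the list's mean width.

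Domains called for covered length were 369 with the 50000 highest peaks and 375 without centring between the stages of G1E, 2 with the 50000 highest peaks in G1E-ER4, 322 and 355 between asynchronous lines, and 5 and 1 between mitotic lines, where the arcsine scale and the lists without replicate 1 gave 0. The interaction gave 75, 67 and, on the arcsine scale, 0. For number of peaks, the lists without replicate 1 gave 162, 4, 137, 2 and 56 in the order stages of G1E, stages of G1E-ER4, asynchronous lines, mitotic lines and interaction, and the 50000 highest peaks gave 20 between the stages of G1E and 2 between asynchronous lines. For best rank, the lists without replicate 1 gave 68, 407, 51 and 24 for the stages of G1E-ER4, both lines and the interaction, and the 50000 highest peaks 195, 6, 161 and 1 for the stages of G1E, those of G1E-ER4 and the lines. With the replicate block, best rank gave 59 for the stages of G1E-ER4, where same-numbered lists were not taken as paired. It gave 31 for the mitotic lines, where they were. Elsewhere the block moved no count by over 1.5 times (704, 610 and 196 for covered length in G1E, asynchronous lines and interaction). Shares over all shared regions are not given beside these counts, so the counts describe the settings and not a trait of the domains. The cause of these moves was not tested.

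With each list left out, domains called for covered length were 0 to 1 between the stages of G1E-ER4, 1 to 6 between mitotic lines and 81 to 527 in the interaction. Calls over all shared regions were 0 to 8, 1 to 24 and 116 to 1077. For number of peaks the domains called were 0 to 52, 0 to 19 and 0 to 6 for the stages of G1E, asynchronous lines and interaction. Calls over all regions tested were 0 to 349, 0 to 300 and 0 to 258. For best rank the domains called were 215 to 453, 0 to 56, 91 to 345, 0 to 24 and 0 to 1. The order is stages of G1E, those of G1E-ER4, asynchronous lines, mitotic lines and interaction. Calls over all shared regions were 871 to 2797, 0 to 619, 416 to 2289, 2 to 286 and 0 to 17. Best rank between the mitotic lines, with 7 domains better and 3 worse in G1E-ER4, turned to 5 and 13 without mitotic G1E replicate 1, 11 and 13 without asynchronous G1E replicate 1, and 21 and 30 without the replicate 1 lists. The cause was not tested. The lists have no read counts, so depth limits these results to an unknown degree.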
